A study of Mus musculus with 3 samples.

Results

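Macrophage-rich spots were examined in Visium sections of mouse heart, where each spot is a small area of tissue that can hold several cells of different types. In each section, the spots with at least 200 detected genes were ranked by the UMIs of C1qa, C1qb, Cd68 and Lyz2 summed and expressed per 10000 UMIs of the spot, and those at or above the 95th percentile of their own section were taken. A UMI is a molecular barcode that counts 1 captured transcript. The rule took 112 of 2234 spots in the sham section, 105 of 2082 in the I/R section and 98 of 1960 in the SBP section, or 315 of 6276 spots in all, and 6 of the 6282 deposited spots had too few genes to be ranked.

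The sections came from C57BL/6 mice, 1 section per condition. All mice were gavaged for 7 days before the operation. The sham mouse received vehicle and had the needle passed with no ligation. The I/R mouse received vehicle, and its left anterior descending coronary artery was ligated for 30 min and then reopened for 24 h. The SBP mouse received a solution of Shexiang Baoxin Pill, a traditional Chinese medicine labelled MUSKARDIA, before the same ligation and 24 h of reperfusion. The array barcodes repeat between slides, and 1091 were found in all 3 sections, of which 1 was chosen in each. Each condition rests on a single section and has no replicate, so no p-value is given. Where 3 values follow each other, they are in the order sham, I/R and SBP. The intervals below are at the 95% level and cover counting error in these libraries only, not the spread between mice. A section stands for its mouse and for the level at which the heart was cut, and these cannot be told apart from the treatment.

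Resident macrophages of the healthy heart clear debris and spent mitochondria, and many of them carry Lyve1, Folr2, Mrc1 and Cd163. After an infarct, neutrophils and then CCR2-positive monocytes enter the injured muscle, and the monocytes become macrophages that engulf dead cells and make secreted proteins such as osteopontin (Spp1) and fibronectin (Fn1). C1qa and C1qb encode chains of complement C1q, Cd68 a lysosomal glycoprotein of phagocytes and Lyz2 a lysozyme of macrophages, monocytes and neutrophils.

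The marker level that a spot needed to enter the group differed widely between the sections. The 95th percentile was 15.3 marker UMIs per 10000 (sham), 50.9 (I/R) and 21.8 (SBP), while the median spot held 3.72, 5.45 and 3.92. The lowest chosen spot and the highest spot left out were at 15.3 and 15.2 in sham, at 50.9 and 50.7 in I/R, and at 22.1 and 21.8 in SBP. The threshold thus lay 4.10 times above the median spot in sham, 9.33 times in I/R and 5.57 times in SBP. The I/R section had by far the longest upper tail of these 3 sections. Measured against the sham threshold, 503 I/R spots (24.2%, 22.3 to 26.1 by the exact Clopper-Pearson method) and 172 SBP spots (8.78%, 7.56 to 10.1) reached it. Measured against the I/R threshold, 13 sham spots and 11 SBP spots reached it. Equal shares of spots are therefore compared below, not equal marker levels.

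**Figure D1:**
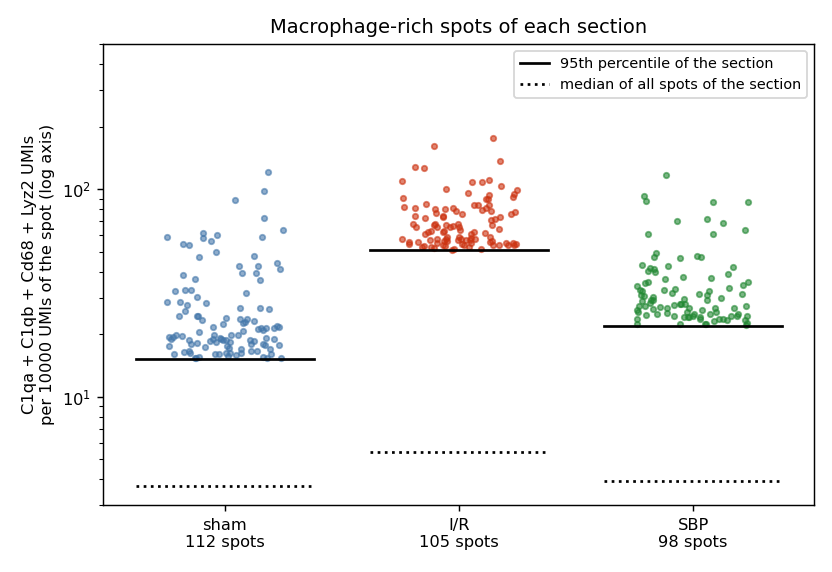
Each point is 1 macrophage-rich spot, with its summed C1qa, C1qb, Cd68 and Lyz2 UMIs per 10000 UMIs on a log axis, by section. Solid lines mark the 95th percentile of the section (15.3 in sham, 50.9 in I/R, 21.8 in SBP) and dotted lines the median of all its spots, and the I/R spots start above most of the chosen sham and SBP spots.

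The make-up of the marker signal differed as well. The chosen spots held 3899 marker UMIs (sham), 8174 (I/R) and 3272 (SBP), with a median per spot of 25, 63 and 27.5 and a minimum of 4, 3 and 3. Lyz2 gave 59.2% of these UMIs (sham), 75.9% (I/R) and 68.0% (SBP), and C1qa with C1qb gave 36.6%, 19.5% and 27.4%. In the spots that were not chosen, Lyz2 gave 46.9%, 62.2% and 52.0%. Lyz2 is also made by monocytes and neutrophils, and the C1q chains mark mature macrophages, so these spots were chosen on a mixture that leaned more to Lyz2 in I/R than in sham.

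The chosen spots were otherwise unlike in depth and in muscle content. The sections held 25118258 (sham), 30238530 (I/R) and 21631280 (SBP) UMIs, and the chosen spots 1355843, 1109547 and 904022 of them. The median UMIs per spot were 11713 in chosen against 10626 in other spots of sham, 9161 against 14777 in I/R and 8877 against 10715 in SBP. More genes were detected in the chosen spots in every section, with medians of 2644 against 2021 in sham, 3105 against 2605 in I/R and 2424 against 2093 in SBP. Transcripts of the 13 mitochondrial genes, which are abundant in cardiomyocytes, made up 37.3% of UMIs in chosen and 49.3% in other spots of sham, 31.8% and 47.0% in SBP, and 14.6% and 45.5% in I/R. Since the values are shares of a spot's UMIs, fewer cardiomyocyte transcripts raise the share of every other gene, and fewer cells of a type and less RNA per cell cannot be told apart.

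The enrichment of a gene is given here as the log2 ratio of its level (UMIs per 1000000 UMIs, CPM) in the chosen spots over the other spots of the same section. For genes with at least 200 UMIs in a section, a ratio of at least 2-fold is called enriched, and 2-fold or more in the other direction is called depleted. These ratios describe spots that were picked on the same UMIs and are no test. In sham, 1245 of 6660 genes (18.7%) were enriched and 36 (0.541%) depleted. In I/R, 3645 of 8072 genes (45.2%) were enriched and 592 (7.33%) depleted, and in SBP 1325 of 6364 genes (20.8%) were enriched and 101 (1.59%) depleted. The median gene itself had a log2 ratio of 0.48 (sham), 0.90 (I/R) and 0.50 (SBP). Set against the median gene, 393 genes were enriched and 237 depleted in sham, 772 and 1444 in I/R, and 467 and 515 in SBP, so that enriched genes were 62.4%, 34.8% and 47.6% of the calls instead of 97.2%, 86.0% and 92.9%. Where a count is followed by one "against the median gene", the second uses this scale.

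The 4 markers had log2 ratios between 2.02 and 3.46, as the rule required. Lyz2 was at 1702 CPM in chosen spots of sham, 5592 in I/R and 2460 in SBP, with log2 ratios of 3.08, 3.46 and 3.28 over the other spots. Choosing the spots on a random part of the UMIs (each with an even chance) and measuring the rest gave 2.87, 3.41 and 3.10 for Lyz2, 1.99, 2.16 and 1.85 for C1qa, 2.26, 2.59 and 2.12 for C1qb, and 3.10, 2.98 and 2.98 for Cd68. The part of the ratio that came from choosing and measuring on the same molecules was thus small, and was largest for Cd68 in SBP, which had 3.33 on the same UMIs. Left out of the rule, Lyz2 still had log2 ratios of 2.78 (sham), 2.90 (I/R) and 2.52 (SBP) in spots chosen on C1qa, C1qb and Cd68. Cd68, left out in its turn, had 3.11, 3.10 and 3.24. Lyz2 and Cd68 were thus each high in spots chosen without them.

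A list of 20 general macrophage genes that the rule did not use was enriched alike in the 3 sections, but its level differed. The summed list was at 2226 CPM in chosen spots of sham, 6362 in I/R and 3081 in SBP. All members with at least 200 UMIs were enriched, 14 of 14 in sham, 18 of 18 in I/R and 16 of 16 in SBP, on both scales, with median log2 ratios of 2.77, 2.97 and 2.87 against 0.48, 0.90 and 0.50 over all genes. Of all genes 18.7%, 45.2% and 20.8% were enriched as counted. Mpeg1, which encodes the pore-forming protein perforin-2 of phagocytes, had a log2 ratio of 4.21 (3.91 to 4.52) in sham, 3.61 (3.44 to 3.77) in I/R and 3.83 (3.54 to 4.11) in SBP. Ctss, the lysosomal protease cathepsin S, had 3.36, 3.56 and 3.50, and Trem2, a lipid-sensing receptor, 3.77, 3.34 and 3.29. C1qc, the remaining C1q chain, had 1.95, 2.06 and 2.01, and Csf1r, the receptor for the macrophage growth factor CSF1, 1.61, 2.35 and 2.11. Members under 200 UMIs in every section were Mertk and Cx3cr1. Cx3cr1, the fractalkine receptor, was at 15.5 CPM in chosen and 4.42 in other spots of sham (21 and 105 UMIs), 22.5 and 3.84 in I/R, and 14.4 and 3.62 in SBP.

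**Figure D2:**
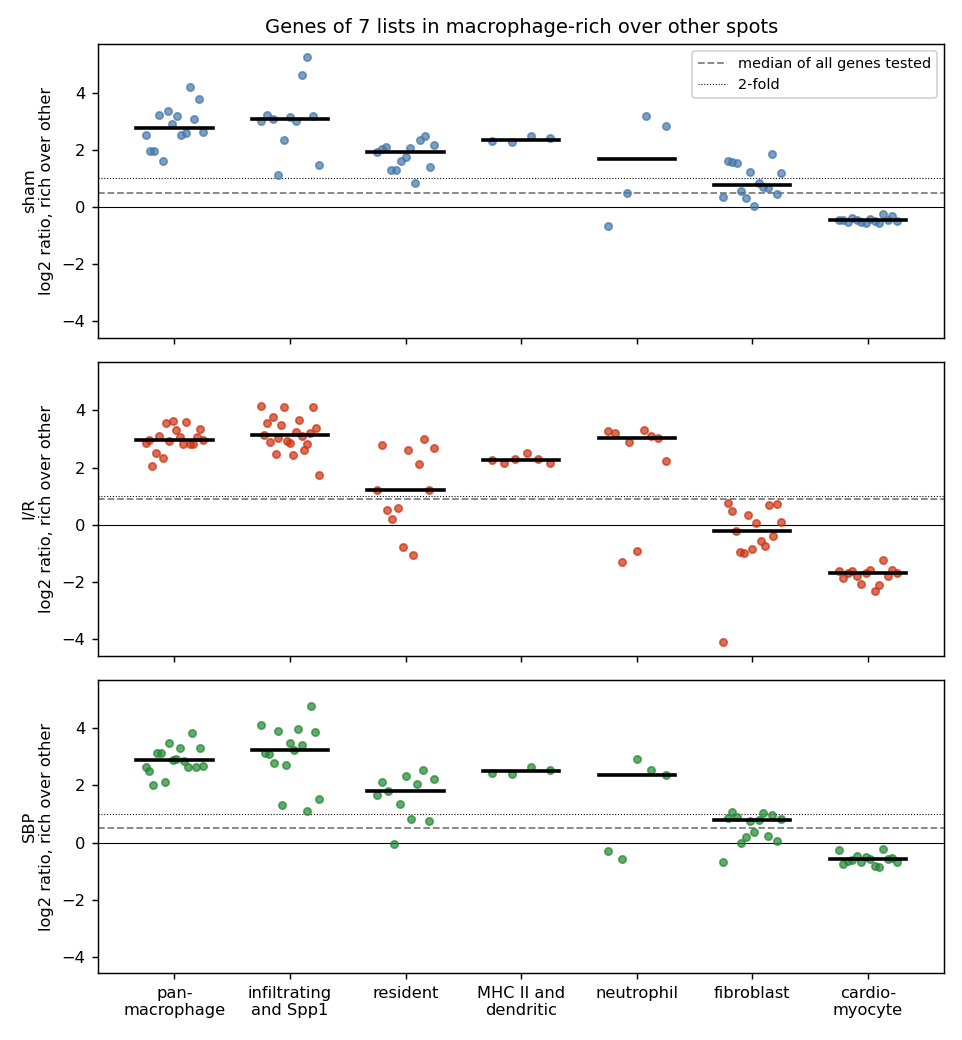
Each point is 1 gene of a list with at least 200 UMIs in the section, with its log2 ratio of CPM in macrophage-rich over other spots, and thick bars give the list medians. General macrophage genes lie near 3 in all sections (medians 2.77, 2.97 and 2.87). The medians of resident and fibroblast genes lie lower in I/R, where the 14 cardiomyocyte genes lie near -1.70.

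The most enriched gene beside the markers, by its mean over the sections, was Spp1 (chr5:104435118-104441050, plus strand, GRCm38), which encodes osteopontin, a matrix protein secreted by macrophages that enter injured tissue. Spp1 was at 1349 CPM in chosen spots of sham against 35.8 in the other spots, at 4943 against 284.8 in I/R and at 1914 against 70.2 in SBP. The log2 ratios were 5.24 (5.12 to 5.36), 4.12 (4.07 to 4.17) and 4.77 (4.67 to 4.87). The level was therefore highest in I/R both inside and outside the chosen spots, and the ratio was highest in sham. Next came Lgals3, galectin-3 of activated macrophages, with log2 ratios of 4.63, 3.25 and 3.96, then Mpeg1 and Thbs1, the matrix glycoprotein thrombospondin-1, with 3.18, 3.40 and 3.86. Ctss, Trem2, Msr1 (a scavenger receptor), Lilrb4a (an inhibitory receptor of myeloid cells), Fn1 and Tgfbi (a matrix protein induced by TGF-beta) followed, with mean log2 ratios between 3.33 and 3.47.

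Promoter sequence was looked at for the 30 genes with the highest mean ratio, because they moved together in all 3 sections. RefSeq promoter windows (250 bases before to 50 after the start, GRCm38.p6) were found for 18 of them. The word GAGGAAGT was searched on both strands (as ACTTCCTC on the other strand), since it is the core bound by PU.1, the factor that directs macrophage development. It was found for 5 of these 18 genes and for 3.69% of all 27025 genes with a window. Since fewer than 80% of the 30 genes had a window, the share among them is void as a comparison, and the sites are shown only as sequences. Each site is shown with 11 bases on each side, the word in capitals, read 5′ to 3′ on the strand of the gene.
Spp1 at chr5:104434987-104435016, plus strand, with the word beginning 113 bases before the RefSeq start: caaaaccagagGAGGAAGTgtaggagcagg
Ctss at chr3:95526773-95526802, plus strand: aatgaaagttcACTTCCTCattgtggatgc
Cd53 at chr3:106790125-106790154, minus strand: cactcagtctcACTTCCTCactcttctcgc
Pirb at chr7:3720484-3720513, minus strand: gtcacaccattGAGGAAGTcagagcatggt
S100a8 at chr3:90668888-90668917, plus strand: ccaacactcccACTTCCTCagactcagaaa
Cd53 encodes a tetraspanin of leukocytes, Pirb an inhibitory receptor of myeloid cells and S100a8 a calcium-binding protein of neutrophils and monocytes. The match is a description of letters and no binding was measured here. Of the 728 genes enriched in all sections, 573 had a window, also under 80%, and 39 of these held the word (6.81%), a share that is void for the same reason.

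Genes of infiltrating monocytes and Spp1 macrophages were enriched in every section. Of the 24 listed, 11 of 11 with enough UMIs were enriched in sham (9 against the median gene), 21 of 21 in I/R (20) and 15 of 15 in SBP (13), with median log2 ratios of 3.07, 3.14 and 3.24. Over all genes 18.7%, 45.2% and 20.8% were enriched (5.90%, 9.56% and 7.34% against the median gene), with medians of 0.48, 0.90 and 0.50. Fn1 had log2 ratios of 3.15 (2.98 to 3.32), 3.49 (3.41 to 3.56) and 3.48 (3.34 to 3.61), and Ccr2, the receptor that brings monocytes out of the blood, 3.23 (2.85 to 3.59), 3.56 (3.39 to 3.73) and 3.10 (2.73 to 3.45). Arg1, arginase of alternatively activated macrophages, was the most enriched gene of I/R, at 526 CPM in chosen and 29.2 in other spots (4.17, 4.02 to 4.32). In SBP Arg1 was at 169 and 9.70 CPM (4.13), and in sham at 42.0 and 1.56 CPM from 57 and 37 UMIs, under the minimum. Chil3, a chitinase-like protein of monocytes, had log2 ratios of 3.78 in I/R and 3.91 in SBP, and Gpnmb, a lysosomal glycoprotein of lipid-laden macrophages, 4.13 in I/R. The median enrichment of the list was therefore of like size in the 3 sections, although over unlike sets of members. Single members did differ, and Spp1 (5.24, 4.12 and 4.77) and Lgals3 (4.63, 3.25 and 3.96) were least enriched in I/R. The levels of the list were not alike.

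In levels, all 11 members measured in both sections were at least 2-fold higher in the chosen spots of I/R than of sham (8 against the median gene), with a median log2 ratio of 2.08. This was not particular to the list, since 12 of 14 general macrophage genes were higher as well (9 against the median gene), with a median of 1.58. The background was 21.7% of 6608 genes higher and 9.32% lower, and the median gene was 0.48 higher in I/R. Fn1 was at 313 CPM (sham), 1873 (I/R) and 738 (SBP), with log2 ratios of level of 2.58 (2.43 to 2.73) for I/R over sham, and -1.34 when SBP was set over I/R. Ccr2 was at 70.1, 370 and 99.6 CPM, and Thbs1 at 50.9, 327 and 113 CPM. Tgfbi, which is not on this list but among the listed genes of activated fibroblasts, was at 181, 1232 and 535 CPM. Of 15 members measured in both injured sections, 10 were at least 2-fold lower in SBP (4 against the median gene), where 11.2% of 6339 genes were lower and 7.21% higher. SBP over sham, which has the SBP section in common with that comparison, had 3 of 11 members at least 2-fold higher and 0 lower, where 2.24% of 6204 genes were higher and 2.85% lower. The SBP section thus lay between sham and I/R for the members Fn1, Ccr2, Thbs1 and Spp1, and also for Tgfbi.

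**Figure D3:**
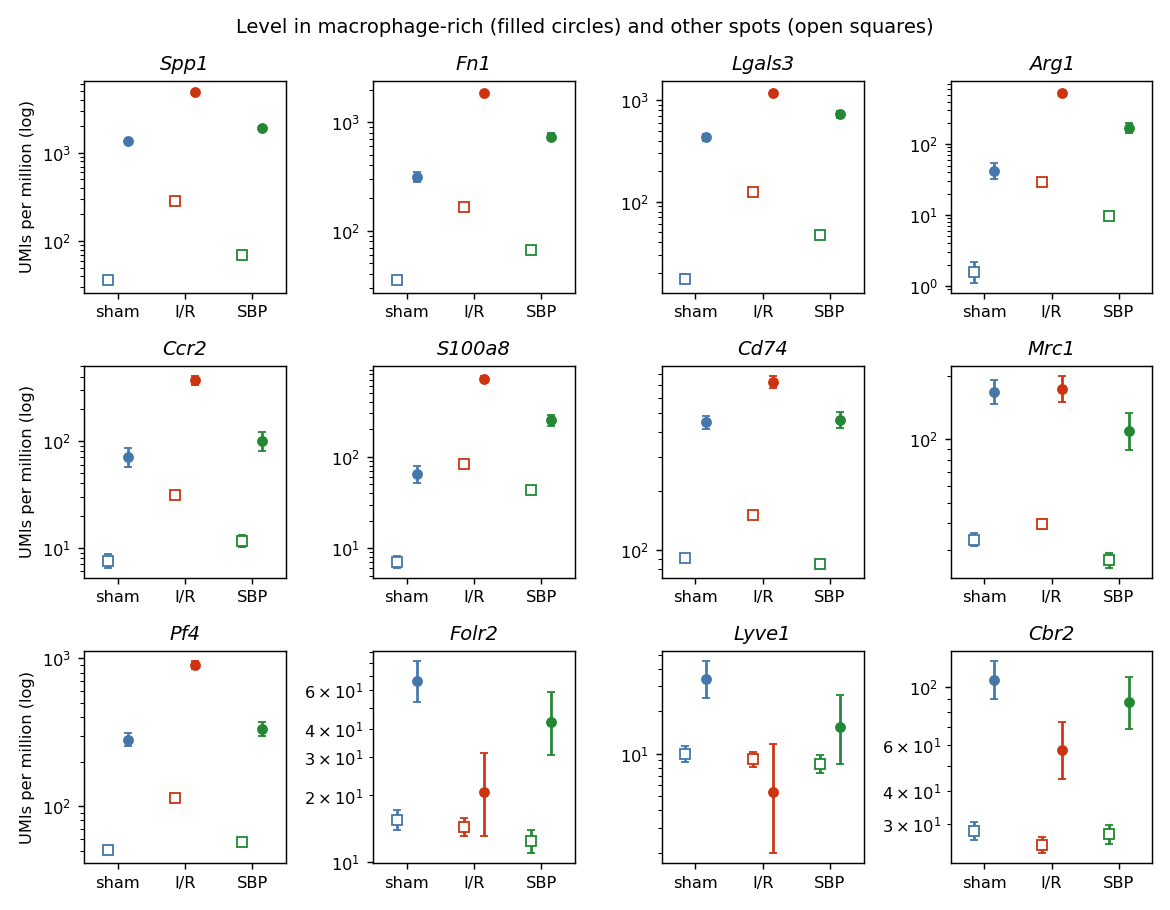
Levels of 12 genes in CPM (log axis) in macrophage-rich spots (filled circles) and other spots (open squares) of each section, with 95% counting intervals. Spp1, Fn1, Arg1, Ccr2 and S100a8 are highest in I/R among the chosen spots, while Lyve1 and Folr2 are lowest there (5.41 and 20.7 CPM).

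Inflammatory genes with few UMIs did not all follow that order. Il1rn, which encodes the interleukin-1 receptor antagonist, was at 18.4 CPM in chosen spots of sham (25 UMIs), 58.6 in I/R (65 UMIs) and 99.6 in SBP (90 UMIs). Cxcl2, a chemokine for neutrophils, was at 1.48, 18.0 and 58.6 CPM from 2, 20 and 53 UMIs. Ccl24, a chemokine for eosinophils, was at 11.1, 38.8 and 64.2 CPM from 15, 43 and 58 UMIs, and Acod1, which makes itaconate in activated macrophages, at 0.738, 2.70 and 31.0 CPM from 1, 3 and 28 UMIs. These 4 were singled out from the lists after their values were seen, each being highest in SBP. Il1b, the cytokine interleukin-1 beta, was at 12.5, 80.2 and 60.8 CPM from 17, 89 and 55 UMIs.

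Genes of resident macrophages were less enriched in I/R than in sham or SBP by their median. Of 20 listed, 12 of 13 were enriched in sham (9 against the median gene), 7 of 12 in I/R with 1 depleted (5 enriched and 2 depleted), and 8 of 11 in SBP (7). The median log2 ratio was 1.91 (sham), 1.22 (I/R) and 1.80 (SBP), and set against the median gene 1.43, 0.31 and 1.301. These medians are over unlike sets of members. The summed list went the other way, with log2 ratios of 1.84, 2.13 and 1.68, highest in I/R. Over all genes 18.7%, 45.2% and 20.8% were enriched as counted. Folr2, a folate receptor of resident macrophages, had a log2 ratio of 2.10 (1.75 to 2.44) in sham, 0.53 (-0.15 to 1.13) in I/R and 1.80 (1.27 to 2.29) in SBP. Lyve1, a hyaluronan receptor also made by lymphatic vessels, had 1.77 (1.28 to 2.23) in sham and -0.77 (-2.23 to 0.37) in I/R, where the chosen spots held 6 Lyve1 UMIs. Cbr2, a carbonyl reductase, had 1.91, 1.20 and 1.67, and Mgl2, a lectin of resident macrophages and dendritic cells, 0.85, -1.04 and 0.81. Other members were as enriched in I/R as in sham or more so. Pf4, the chemokine CXCL4, had 2.48, 3.00 and 2.55, F13a1, coagulation factor XIII-A, 2.02, 2.79 and 2.13, and Stab1, a scavenger receptor, 2.16, 2.70 and 2.21. Mrc1, the mannose receptor, had 2.33, 2.13 and 2.03.

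The levels of the resident genes separated in the same way. Folr2 was at 66.4 CPM in chosen spots of sham, 20.7 in I/R and 43.1 in SBP, with a log2 ratio of level of -1.68 (-2.41 to -1.01) for I/R over sham. Lyve1 was at 33.9, 5.41 and 15.5 CPM from 46, 6 and 14 UMIs, and Cd163, a hemoglobin scavenger receptor, at 25.8, 7.21 and 18.8 CPM from 35, 8 and 17 UMIs. Timd4, a receptor for phosphatidylserine, had 6, 0 and 3 UMIs in the chosen spots and 41, 36 and 31 in the others, too few to compare. Pf4 was at 282 CPM (sham), 904 (I/R) and 333 (SBP), and Mrc1 at 168, 174 and 110 CPM. Between I/R and sham, 1 of 12 resident genes was at least 2-fold higher and 3 lower (1 and 5 against the median gene), with a median log2 ratio of -0.39, while the summed list was 0.49 higher, with Pf4 among its abundant members. Over all genes 21.7% were higher and 9.32% lower. Between SBP and I/R, 2 of 11 resident genes were higher and 1 lower on both scales, where 7.21% of all genes were higher and 11.2% lower. The 4 marker genes did not move together either, since Lyz2 was 1.72 (1.65 to 1.79) higher in I/R than in sham and C1qa 0.27 (0.10 to 0.43), a difference below that of the median gene, so that its sign turns on that scale.

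Setting each gene against the UMIs of the general macrophage list in the same spots gives a scale on which the muscle transcripts of a spot do not count. Per 100 such UMIs in the chosen spots, the resident list had 84.1 (79.8 to 88.7) in sham, 41.4 (39.6 to 43.2) in I/R and 51.6 (48.4 to 55.0) in SBP. The infiltrating and Spp1 list had 144 (137.5 to 151), 203 (197 to 209) and 187 (178 to 195). The sections thus kept apart on this scale, with I/R and SBP nearer to each other than to sham for both lists. Among single genes, Folr2 had 2.98, 0.326 and 1.40, Lyve1 1.52, 0.0850 and 0.503, Cd163 1.16, 0.113 and 0.610, and Cbr2 4.77, 0.907 and 2.84. Each of these 4 genes, singled out from the list, was lowest in I/R, and Mrc1, with 7.55, 2.73 and 3.55, was highest in sham, with overlapping intervals in I/R and SBP (2.36 to 3.15 and 2.88 to 4.34). Arg1 had 1.89, 8.27 and 5.49, Fn1 14.1, 29.4 and 23.9, and Ccr2 3.15, 5.82 and 3.23. Pf4 had 12.7, 14.2 and 10.8, so its higher CPM in I/R went with the general macrophage genes. The other spots also differed, with 145, 74.0 and 110 for the resident list, some of whose members (Selenop, Gas6, Igf1, Lyve1) other heart cells also make.

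**Figure D4:**
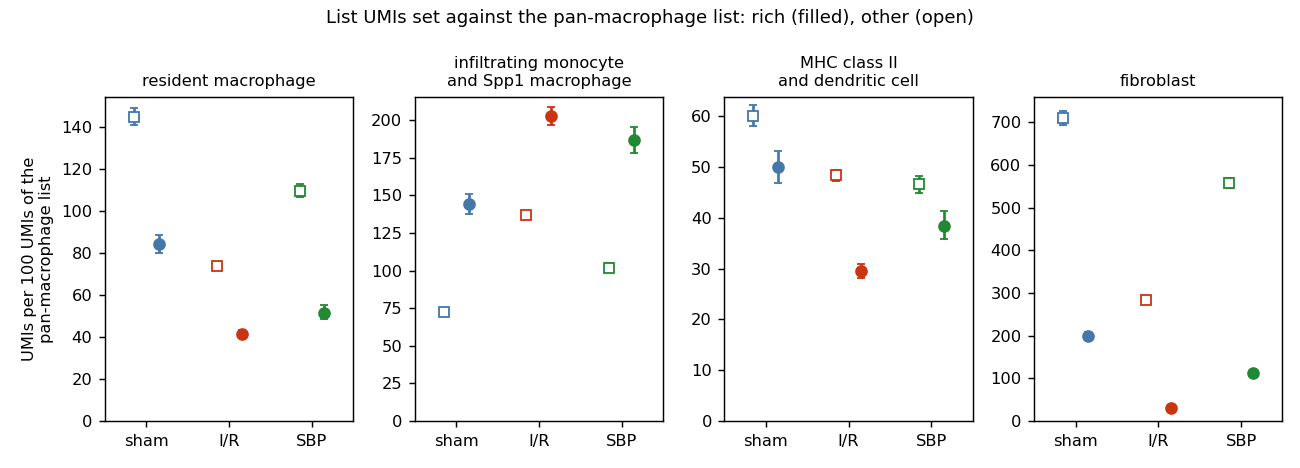
UMIs of 4 gene lists per 100 UMIs of the general macrophage list in macrophage-rich (filled) and other spots (open) of each section, with 95% counting intervals. In the chosen spots the resident list is at 84.1 (sham), 41.4 (I/R) and 51.6 (SBP), while the infiltrating and Spp1 list is at 144, 203 and 187.

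MHC class II genes, which present antigen to T cells, were enriched alike. All 4 members with enough UMIs were enriched in sham, 6 of 6 in I/R and 4 of 4 in SBP, on both scales, with median log2 ratios of 2.36, 2.28 and 2.5. The background was 18.7%, 45.2% and 20.8% of all genes, and 5.90%, 9.56% and 7.34% against the median gene. Cd74, the invariant chain, was at 451, 727 and 463 CPM in chosen spots and had log2 ratios of 2.31 (2.18 to 2.44), 2.26 (2.15 to 2.37) and 2.45 (2.29 to 2.61). H2-Aa had 2.28, 2.18 and 2.41. No member differed 2-fold in level between any pair of sections. Per 100 general macrophage UMIs the list had 50, 29.5 and 38.5. Dendritic cell genes were near the floor, with Flt3 at 4, 5 and 1 UMIs and Xcr1 at 1, 0 and 1 in the chosen spots.

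Signal of the neutrophil list overlapped with the chosen spots. S100a8 was at 64.9 CPM in chosen spots of sham, 721 in I/R and 252 in SBP, with log2 ratios over the other spots of 3.20, 3.09 and 2.55, and its partner S100a9 at 64.9, 653 and 237 CPM. S100a8 had the largest ratio of level between the chosen spots of I/R and sham of the 6608 genes, 3.47 (3.15 to 3.81) on the log2 scale. Of 20 listed neutrophil genes, 2 of 4 were enriched in sham, 7 of 9 in I/R with 1 depleted, and 3 of 5 in SBP. The numbers enriched were the same against the median gene, and the background was 18.7%, 45.2% and 20.8% of all genes. The members not enriched were Lcn2 and G0s2, which other heart cells also make. The genes that define neutrophils most narrowly were almost absent, with Ly6g at 0, 1 and 0 UMIs, Ngp and Camp at 0 and Retnlg at 0, 7 and 0 UMIs in the chosen spots, while Cxcr2, their chemokine receptor, had 16, 41 and 13. Of the chosen spots, 30 of 112 in sham (26.8%, 18.9 to 36.0), 37 of 105 in I/R (35.2%, 26.2 to 45.2) and 29 of 98 in SBP (29.6%, 20.8 to 39.7) also lay in the top 5% of their section by the neutrophil list. Without these spots, 754 genes were enriched in sham in place of 1245, while the counts in I/R and SBP stayed within 1.5-fold of their first values. The summed neutrophil list was at 391 CPM in chosen and 148 in other spots of sham, 2150 and 372 in I/R, and 920.3 and 307 in SBP. The part of neutrophils in the differences between sections was not tested.

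Lysosomal and lipid-handling genes were enriched in nearly all cases. Of 21 listed, 18 of 19 were enriched in sham (15 against the median gene), 21 of 21 in I/R (17) and 17 of 19 in SBP (15), with median log2 ratios of 1.76, 2.55 and 1.86. Ctsb, cathepsin B, was at 2555 CPM (sham), 5945 (I/R) and 3178 (SBP), and Psap, a precursor of lipid-degrading cofactors, had log2 ratios of 1.40, 2.49 and 1.73. Apoe, the lipid carrier apolipoprotein E, was at 1234, 2198 and 1131 CPM in chosen spots against 325, 329 and 339 in the others, so that the chosen spots differed between sections and the others hardly did. The iron store genes parted, with log2 ratios of 2.82, 2.92 and 2.72 for Ftl1 (ferritin light chain) and 0.35, 1.17 and 0.75 for Fth1 (ferritin heavy chain), and the 10 iron and heme genes had 3 of 6, 6 of 7 and 3 of 6 enriched (2, 3 and 2 against the median gene). Over all genes 18.7%, 45.2% and 20.8% were enriched. Hmox1, which degrades heme, had log2 ratios of 3.01, 2.94 and 3.24.

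Chemokines for monocytes were strongly enriched. Of 26 listed chemokine and receptor genes, 7 of 9 were enriched in sham, 14 of 16 in I/R (13 against the median gene) and 9 of 11 in SBP. Ccl2 was at 203, 748 and 414 CPM in chosen spots, with log2 ratios of 3.39, 2.78 and 3.26, and Ccl7 at 243, 844 and 572 CPM, with 3.26, 2.74 and 3.32. Ccl6, a chemokine of myeloid cells, had 3.22, 3.31 and 3.24. Over all genes 18.7%, 45.2% and 20.8% were enriched. Cxcl12, which stromal cells make, was not enriched, with log2 ratios of 0.58, 0.65 and 0.25.

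Complement genes split into those enriched everywhere and those depleted in I/R. C1qc, the receptors C3ar1 and C5ar1, properdin (Cfp) and the integrin chain Itgb2 were enriched in all sections, with log2 ratios between 1.95 and 3.29. The regulator Serping1 and the components C4b and C1s1, which fibroblasts and other stromal cells make, were among those depleted in I/R, with -1.34, -1.38 and -2.58, from 31, 5 and 2 UMIs in the chosen spots. In sham these had 0.79, 1.997 and 0.38. Of 16 listed, 6 of 11 were enriched in sham, 5 of 11 in I/R with 4 depleted, and 5 of 10 in SBP. These numbers were unchanged against the median gene. Over all genes 18.7%, 45.2% and 20.8% were enriched, and against the median gene 5.90%, 9.56% and 7.34%. As counted, the enriched share of the list in I/R was thus near that of all genes. The depleted share of all genes was 0.541%, 7.33% and 1.59%.

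Interferon-stimulated and cell cycle genes depended on the scale. Of 16 interferon-stimulated genes, 3 of 4 were enriched in sham, 10 of 11 in I/R and 4 of 6 in SBP, and against the median gene 2, 3 and 3. Over all genes the enriched shares were 18.7%, 45.2% and 20.8%, and against the median gene 5.90%, 9.56% and 7.34%. Ifi27l2a had log2 ratios of 1.495, 1.49 and 1.91. Of 16 cell cycle genes, 5 of 5, 12 of 13 and 4 of 5 were enriched, and against the median gene 4, 2 and 3. Mki67, a marker of cycling cells, had 36, 42 and 7 UMIs in the chosen spots, and Birc5, a mitotic regulator, 56, 34 and 6. Both, singled out from the list, were scarce in the chosen SBP spots. The summed list was at 895 CPM (sham), 1741 (I/R) and 783 (SBP) in the chosen spots. Of 5 members measured in both SBP and sham, 3 were higher in SBP and 2 were lower, these 2 at least 2-fold.

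Fibroblast genes set the sections apart. Of 15 listed, 6 of 14 were enriched in sham (4 against the median gene), 0 of 15 in I/R with 1 depleted (8 against the median gene), and 2 of 14 in SBP (0), with median log2 ratios of 0.77, -0.22 and 0.78. Col3a1, a collagen of fibroblasts, was at 741 CPM in chosen and 254 in other spots of sham (1.55, 1.45 to 1.64), at 263 and 306 in I/R (-0.22, -0.39 to -0.05), and at 309 and 165 in SBP (0.90, 0.72 to 1.08). Clec3b, a plasminogen-binding protein of fibroblasts, had 1 UMI in the chosen I/R spots and 453 in the others, a ratio of -4.11 (-9.42 to -1.62). Of the listed genes of activated fibroblasts, 8 of 11 were enriched in sham, 5 of 13 in I/R with 2 depleted, and 6 of 11 in SBP (6, 2 and 6 enriched against the median gene), where the background was 18.7%, 45.2% and 20.8% of all genes. The summed list did not follow these counts, with log2 ratios of 1.53, 1.61 and 1.51. In the chosen spots it was at 1850 CPM (sham), 4577 (I/R) and 2387 (SBP), highest in I/R. Timp1, an inhibitor of metalloproteinases, had log2 ratios of 2.63, 1.65 and 1.82. Postn, which encodes periostin, had 1.43, 0.89 and 2.13 and was not enriched in I/R. In sham 43 of the chosen spots (38.4%) also lay in the top 5% by the activated fibroblast list, in SBP 34 (34.7%) and in I/R 15 (14.3%).

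Cardiomyocyte genes were lower in the chosen spots in every section, and far lower in I/R. All 14 listed genes were depleted in I/R, with a median log2 ratio of -1.70, and 0 of 14 were in sham (-0.47) or SBP (-0.59), although against the median gene 3 and 10 were. Over all genes 0.541%, 7.33% and 1.59% were depleted, and against the median gene 3.56%, 17.9% and 8.09%. Myh6, the alpha myosin heavy chain, was at 4933 CPM in chosen and 7031 in other spots of sham, at 1241 and 5200 in I/R and at 3628 and 5788 in SBP. Between sections, all 14 were at least 2-fold lower in the chosen spots of I/R than of sham, all 14 were higher in SBP than in I/R, and 0 differed 2-fold between SBP and sham. Over all genes 9.32% were lower in I/R than in sham and 7.21% higher in SBP than in I/R. Genes of stressed cardiomyocytes at the infarct border were not depleted to that extent, with median log2 ratios of 0.38, -0.33 and 0.53. Of these 12 genes, the I/R section had 1 depleted as counted but 8 against the median gene. Sham and SBP had 0 depleted on both scales. Endothelial genes were enriched in 1 of 14, 5 of 14 and 1 of 14 cases, and against the median gene in 1, 0 and 0. The background was 18.7%, 45.2% and 20.8% of all genes. Smooth muscle and pericyte genes were enriched in 2 of 9, 0 of 10 and 1 of 9, and against the median gene in 0, 0 and 0.

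Ranking all spots of a section by marker share and splitting them into 20 equal groups showed where these differences began. In I/R the mitochondrial share was 52.3% in the lowest group, 21.7% in the 19th and 14.6% in the 20th, so the decline was not limited to the chosen spots. The infiltrating and Spp1 list was at 225 CPM in the lowest group of I/R, 7484 in the 19th and 12941 in the 20th. In sham it was at 171, 609 and 3217, and in SBP at 233, 1456 and 5747, so that most of the increase in these 2 sections came in the last group. Fibroblast genes were at 2672 CPM in the 18th group of I/R, 1916 in the 19th and 1922 in the 20th, while in sham they were at 3589, 4816 and 4449. These values come from the same ranking and are a description.

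**Figure D5:**
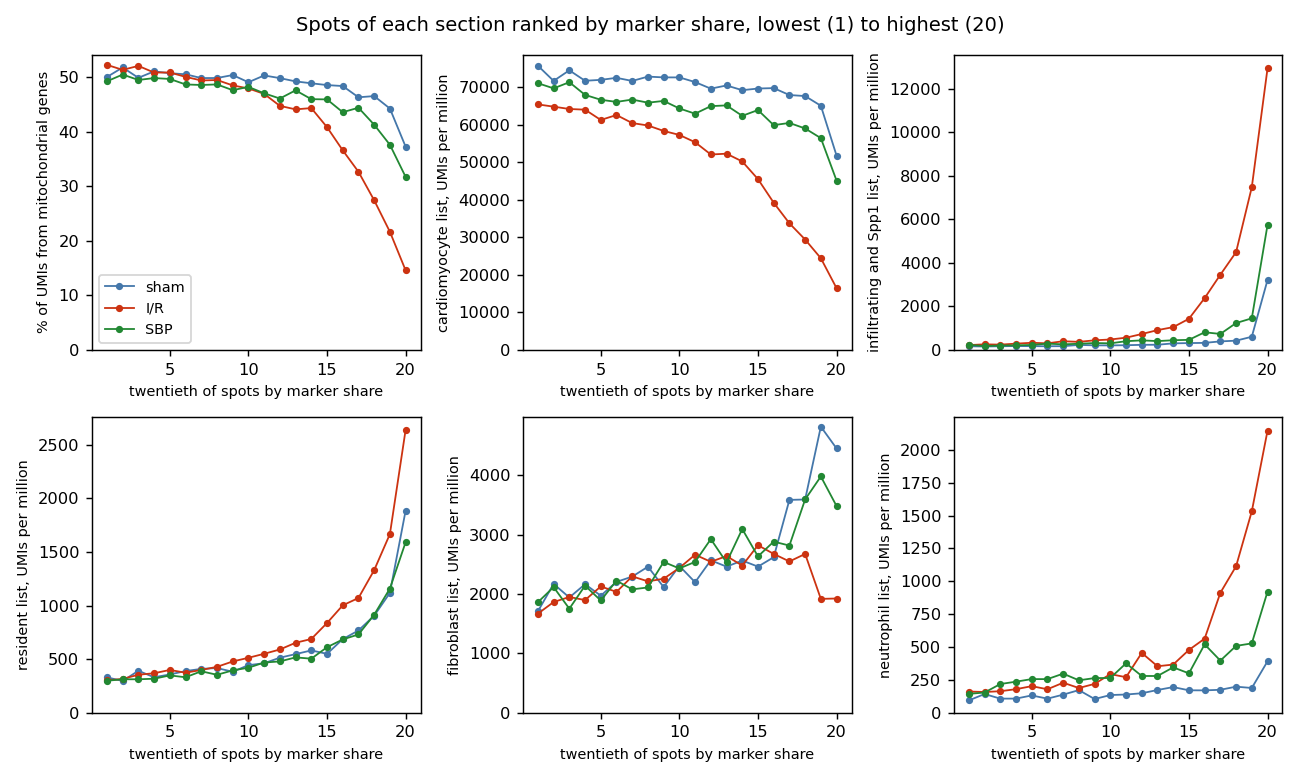
Spots of each section ranked by marker share into 20 equal groups (x axis, lowest to highest), with the mitochondrial share of UMIs and the level of 5 gene lists in CPM. In I/R the mitochondrial share declines over the upper groups to 14.6%, while it ends at 37.3% in sham and 31.8% in SBP.

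The chosen spots of a section were not alike. Spp1 was found in 66 of the 112 chosen sham spots (58.9%), 105 of 105 in I/R and 79 of 98 in SBP (80.6%). Its lowest, median and highest level per 10000 UMIs was 0, 0.855 and 132 in sham, 5.55, 29.1 and 394 in I/R, and 0, 10.9 and 163 in SBP. In sham 57.0% of the Spp1 UMIs came from 10 spots, against 49.3% in I/R and 41.6% in SBP. The chosen sham spots thus ranged widely, since many had no Spp1 while their 75th percentile was 21.3 per 10000. The 25th percentile in I/R was 17.6. Arg1 was found in 25% of chosen spots (sham), 88.6% (I/R) and 53.1% (SBP), and S100a8 in 29.5%, 95.2% and 53.1%. Lyve1 went the other way, in 28.6% of chosen sham spots, 5.71% in I/R and 9.18% in SBP, against 9.57%, 10.1% and 7.73% of the other spots, so that in I/R and SBP its share in the chosen spots was no higher than that background within its interval (2.13 to 12.0 and 4.29 to 16.7). Spots differ in depth, and these shares were not thinned to 1 depth.

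Within the chosen spots Lyz2 and the C1q chains parted company. Over all spots, Spearman's rho between C1qa with C1qb and Lyz2 was 0.39 in sham (2234 spots), 0.67 in I/R (2082) and 0.39 in SBP (1960), and over the chosen spots it was 0.07 (112), -0.31 (105) and -0.40 (98). A choice on the sum of these genes lowers such a value by itself. Between Lyz2 and Spp1 it was 0.70, 0.22 and 0.46 over the chosen spots. Spots share a library and neighbouring tissue, so these are given as descriptions.

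Choosing the spots on C1qa and C1qb alone gave partly other spots. Of those taken, 81 of 112 in sham (72.3%), 53 of 105 in I/R (50.5%) and 49 of 98 in SBP were among the spots of the 4-marker rule. The infiltrating and Spp1 list then had a log2 ratio of 3.20 (sham), 2.77 (I/R) and 2.34 (SBP), where the 4-marker rule gave 3.61, 3.54 and 3.64 for the summed list. Spp1 itself was at 1115, 2822 and 830 CPM, and its level in SBP was then below that in sham. The resident list had 1.81, 1.93 and 1.72, in place of 1.84, 2.13 and 1.68. Lyve1 was at 37.4, 14.8 and 30.2 CPM, and Cd163 at 31.4, 9.87 and 25.03 CPM, both still lowest in I/R, although the log2 ratio of Lyve1 over the other I/R spots was then 0.74 (-0.12 to 1.49). The neutrophil list had 1.25, 1.90 and 0.46, in place of 1.41, 2.53 and 1.58.

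Taking every spot at or above the sham threshold (112, 503 and 172 spots) gave the sections the same floor but not the same marker level, since the general macrophage list was at 2226, 3418 and 2330 CPM in these spots. The infiltrating and Spp1 list was then at 3207 CPM (sham), 6039 (I/R) and 3884 (SBP), and the resident list at 1873, 1536 and 1406. Spp1 was at 1349, 2030 and 1219 CPM, so SBP and sham were close, and Lyve1 at 33.9, 9.88 and 18.0 CPM. The mitochondrial share was 37.3%, 27.1% and 34.3%. With this common floor, the I/R section had the highest infiltrating and the lowest Lyve1 level of the 3, along with the highest general macrophage level. The resident list as a whole was lowest in SBP.

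The lists of enriched genes overlapped to unlike degrees, but they also differed in length. The I/R list held 2443 of 6195 genes, against 1145 in sham and 1235 in SBP. Each share below, and the count enriched in I/R alone, therefore depends on list length. Of 6195 genes with at least 200 UMIs in all sections, 728 were enriched in each, which is 63.6% of the 1145 enriched in sham, 29.8% of the 2443 in I/R and 58.9% of the 1235 in SBP. A further 1058 were enriched in I/R alone, 108 in sham alone and 89 in SBP alone, and 3520 in none. Of the SBP list, 1111 genes (89.96%) were in the I/R list, which is 45.5% of the latter. Of the sham list, 1002 genes (87.5%) were in the I/R list, or 41.0% of it. Sham and SBP had 763 in common, 66.6% of the sham list and 61.8% of the SBP list. Against the median gene, 247 genes were enriched in all 3 sections. The enrichment of I/R exceeded that of sham by at least 1 on the log2 scale for 365 of 6609 genes and fell short of it by as much for 491, and against the median gene for 55 and 964. For SBP against I/R these counts were 360 and 317 of 6346 (714 and 63 against the median gene), and for SBP against sham 70 and 162 of 6204 (66 and 172).

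In level, 1437 of 6608 genes were at least 2-fold higher in the chosen spots of I/R than of sham and 616 lower, and against the median gene 334 and 1103. SBP over I/R had 457 higher and 713 lower (761 and 164), and SBP over sham 139 and 177 (102 and 200). The largest ratios of I/R over sham were those of S100a8, S100a9, Igfbp3 (an IGF-binding protein, 14.0 and 97.3 CPM in sham and I/R), Eno1 (a glycolytic enzyme, 38.4 and 264 CPM) and Tgfbi. The smallest included Clec3b, Mfap4 and Timp4, each with 1 UMI in the chosen I/R spots. The largest of SBP over I/R included Kcnj3 and Ces1d (2 UMIs each in I/R), and the smallest Hbb-bt and Alas2, genes of red blood cells.

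In the chosen spots, a few muscle genes were highest in SBP and hemoglobin genes were most depleted there. Nppa, the atrial natriuretic peptide, was at 569 CPM in the chosen spots of sham, 891 (I/R) and 2623 (SBP), and at 452, 1156 and 1326 CPM in the other spots. Myh7, the beta myosin heavy chain, was at 85.6, 126 and 535 CPM, and Nmrk2, a kinase of NAD synthesis induced in stressed muscle, at 17.7, 43.3 and 154 CPM. These 3 had the largest ratios of SBP over sham, with Nmrk2 3.12 (2.49 to 3.81) and Nppa 2.20 (2.09 to 2.32) higher on the log2 scale. Hemoglobin genes were depleted in the chosen SBP spots, with Hba-a1 at -1.54, Hbb-bs at -1.34 and Hbb-bt at -2.23, against -0.62, -0.59 and -0.37 in sham and 0.19, 0.03 and 0.11 in I/R. Near-identical copies of the hemoglobin genes, and of Lyz2 with Lyz1, can share reads, so their separate values are uncertain. Of the chosen SBP spots, 0 of 98 lay in the top 5% by the blood list, which allows up to 3.69% by the exact method.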

How the data were processed

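Visium spatial libraries of 3 mouse heart sections (sham, I/R and SBP, 1 section each, cryosections) are described. Libraries of single nuclei from the same study were not used here. The UMI counts per gene and spot were deposited by the authors as raw count matrices, and the submitters' processing notes name Space Ranger 1.3.0 and mm10. Positions came from GENCODE M21 (GRCm38), which held 32235 of the 32285 identifiers. Spot positions and images were not used, and no doublet caller was run since spots hold several cells.

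Counts were summed over chosen and other spots of a section and divided by the total, as CPM (per 1000000 UMIs). Intervals are exact Poisson for levels, exact conditional binomial for ratios, exact Clopper-Pearson for shares and normal for differences of log2 ratios, at 95%. A section without replicates allows no test. Spots are not replicates of a condition. Genes with at least 200 UMIs in a section were compared, and in both sections for levels.

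The members and the 23 gene lists were chosen with earlier results of these data known. Of the listed symbols 2 were not in the files. Genes were named as the 4 markers, the 10 largest and 5 smallest ratios per section, the 5 largest and 5 smallest differences and levels per comparison, and members of the lists. The ratios were tested on simulated data, and 22 alternative settings were tried, of which 1 (values against the median gene) was added after seeing the data. The scripts ran in Python 3.11.15 with pandas 2.3.3, scipy 1.17.1, matplotlib 3.10.9 and numpy 2.4.6.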

Additional observations from a re-analysis of the deposited data

Results flagged for a closer look

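Among the listed genes, 3 were at least 2-fold enriched in the chosen spots of 1 section, with an interval above its median gene, and had a ratio below 0 in another section, with an interval below 0. In each case the difference was not tested. C4b, a complement component, had a log2 ratio of 1.997 in sham and -1.38 in I/R, from 82 and 5 UMIs in the chosen spots. Col3a1, a fibrillar collagen, had 1.55 in sham and -0.22 in I/R. Mfap5, a microfibril protein of fibroblasts, had 1.04 in SBP and -0.58 in I/R. Other listed genes had intervals on opposite sides of 0 without being enriched in any section, among them Mgl2, with 0.85 in sham and -1.04 in I/R, and Serping1, with 0.79 and -1.34. C4b, Col3a1 and Mfap5 are also made by fibroblasts, whose listed genes were lower in the chosen I/R spots, at 1931 CPM against 4430 CPM in sham and 3479 CPM in SBP, and the part of this in these differences was not tested. Col3a1 and Mfap5 are themselves on that list, so its level is not separate from theirs.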

How the results depend on the processing

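Each main value was recomputed under several alternatives, and 358 of these recomputed values stayed near the first value while 100 moved. A change of sign was looked for only in the log2 ratios of some chosen genes, where no called ratio changed sign. The balance of levels for I/R over sham did turn, from 1437 genes higher and 616 lower to 214 and 1246 with TMM factors. No paired analysis was possible because a single section stands for each condition. The cause of the moves was not tested, but some settings fix a direction themselves. A higher or lower gene minimum tests fewer or more genes, and a looser or stricter call admits more or fewer. A lower percentile also lowers the sham threshold, so more spots reach it. Leaving out neutrophil-rich spots removes spots that were picked on the neutrophil list. With genes of at least 100 UMIs, 1983 genes were enriched in sham, 2082 in SBP and 1118 in all 3 sections. With at least 500 UMIs these were 480, 514 and 328, and 1882 in I/R. With the lower bound of the interval at or above 2-fold they were 472 (sham), 1952 (I/R), 523 (SBP) and 332 (all). At 1.5-fold they were 2852 in sham, 2845 in SBP and 1932 in all. Against the median gene they were 393, 772, 467 and 247, and with UMIs of mitochondrial genes left out 506, 1194, 514 and 300.

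With markers without Lyz2, 775 genes were enriched in SBP and 475 in all, and with C1qa and C1qb alone 669 and 394. At the 90th percentile 694 were enriched in sham and 440 in all, and in the top 2.5% of spots 2017 in sham. With spots thinned to 6500 UMIs, which left out 132, 202 and 213 spots, 876 were enriched in SBP. Without spots also in the top 5% by the neutrophil list, 754 were enriched in sham and 432 in all. With at least 500 UMIs, the infiltrating and Spp1 list had 6 enriched in sham and 7 in SBP, and the general macrophage list 7 in each. The neutrophil list had 4 (sham) and 6 (SBP) with at least 100 UMIs, and 0 in sham with at least 500. Without the spots in the top 5% by that list it had 1 (sham) and 0 (SBP).

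Genes whose enrichment differed 2-fold between I/R and sham, 856 in the main count, were 1416 with at least 100 UMIs, 378 with at least 500, 254 at the sham threshold in every section and 1289 without the neutrophil-rich spots. Between SBP and I/R (677) they were 1240, 258 and 187 at the first 3 of these settings and 1081 with spots chosen on a random part of the UMIs and measured in the rest. Between SBP and sham (232) they were 633 with at least 100 UMIs, 35 with at least 500 and 59 at the 90th percentile. They were 599 in the top 2.5% of spots, 140 after thinning and 582 with the UMIs split in that way. With equal weight for each spot they were 396, and at the sham threshold 115. Without the spots in the top 5% by the neutrophil list they were 382.

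Levels depended on the scaling. Genes higher in I/R than in sham were 214 with TMM factors, 232 with median-of-ratios factors, 389 without mitochondrial UMIs and 346 at the sham threshold, and those lower were 1246, 1218, 998 and 252. For SBP over I/R, genes higher were 867, 829, 718 and 135, and those lower 105, 126, 270 and 137, with 1146 lower without Lyz2 and 1263 with C1qa and C1qb alone. For SBP over sham, genes higher were 87, 85, 75 and 75, and 81 without Lyz2 and 91 with C1qa and C1qb alone, and those lower were 78 at the sham threshold.

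The share of chosen spots in the top 5% by the neutrophil list was 24.8% in I/R and 18.4% in SBP without Lyz2, and 22.9% and 16.3% with C1qa and C1qb alone. It was 19.5% in I/R at the sham threshold, 14.1% in SBP after thinning, and 17.0% in sham at the 90th percentile and 41.1% in the top 2.5%. The share of spots at the sham threshold was 21.2% in I/R without mitochondrial UMIs, 14.2% in I/R and 5.66% in SBP without Lyz2, 12.7% and 5.51% with C1qa and C1qb alone, 30.7% and 16.1% at the 90th percentile, and 18.8% and 7.33% after thinning. Among single genes, the log2 ratio of Folr2 in I/R ranged from -0.38 to 1.40 and that of Lyve1 from -1.67 to 0.75 over the alternatives, so that the sign of both, which were not called, depended on the setting. Spp1 stayed between 4.19 and 5.93 in sham, 2.92 and 4.33 in I/R, and 2.84 and 4.77 in SBP. With 6 Lyve1 UMIs in the chosen I/R spots, depth limits what can be said of that gene.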

Other observations

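Genes of other cell types were measured in the chosen spots as well. Lymphocyte genes summed to 33.2 CPM (sham), 67.6 (I/R) and 26.5 (SBP), and Ighm, the immunoglobulin heavy chain of B cells and the only listed lymphocyte gene with enough UMIs in any section, had log2 ratios of 1.95 in sham and 2.24 in I/R. Of the chosen spots, 9.82% (sham), 23.8% (I/R) and 9.18% (SBP) lay in the top 5% of their section by the lymphocyte list. That class began at 1.03, 1.22 and 0.984 list UMIs per 10000, so a single UMI could place a shallow spot in it. Cd3e, a T cell receptor subunit, had 0, 0 and 1 UMIs there. Of the epicardial genes 1 of 1 was enriched in sham and 0 of 1 in I/R and SBP, and of the adipocyte and the atrial genes 0 of 2 in each section, with 1 adipocyte gene depleted in I/R. The summed atrial list was at 585 CPM in chosen and 475 in other spots of sham, 900.4 and 1171 in I/R, and 2638 and 1346 in SBP. Nearly all of this sum was Nppa, whose levels are given above and which is also on the list of stressed border cardiomyocytes. The sum therefore says little of the other atrial genes. Of 30 genes that the study names for macrophages, 7 of 13 were enriched in sham and 6 of 12 in SBP. In I/R 13 of 16 were enriched and 2 depleted. Against the median gene 5, 9 and 4 were enriched. Over all genes 18.7%, 45.2% and 20.8% were enriched as counted. The authors chose this list on nuclei of the same study, so it is no independent evidence.

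Blood genes were at least 2-fold higher in the chosen spots of I/R than of sham for 4 of 4 measured (0 against the median gene), and lower in SBP than in I/R for 5 of 5 on both scales. Over all genes 21.7% were higher in I/R than in sham and 11.2% lower in SBP than in I/R. Against the median gene these shares were 5.05% and 2.59%. Pdk4, a kinase that restrains glucose oxidation, had a log2 ratio of level in the chosen spots of -2.76 in I/R and of -2.69 in SBP, each set over sham. Both comparisons have the sham section in common.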
